A study of Mus musculus with 14 samples.

Results

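The immunoglobulin genes of the ileum mucosa were taken as the 167 rows of the deposited count table that are annotated as constant (C), variable (V), diversity (D) or joining (J) immunoglobulin genes and that held at least 50 counts summed over 14 libraries. The table has 264 rows with these annotations among 54532 genes. Of the 167 genes, 11 are constant, 152 are V genes (74 heavy, 75 kappa and 3 lambda) and 4 are J genes, and 0 are D genes. The other 97 rows fell under the minimum, 33 of them with no count at all, and the constant genes among them were Ighe with 17 counts and Iglc4 with 4. The values next to the minimum were 48 counts for Ighv1-62-2 outside it and 56 for Ighv1-47, Igkv11-125 and Ighj4 inside it.

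The libraries came from male mice on a high-fat diet (HFD) for 15 weeks, 7 to 9 weeks old when it began. The 7 WT mice were NCoR1 flox/flox, so they carried the floxed allele but no Cre, and the 7 IKO mice were NCoR1 flox/flox with a Cre recombinase driven by the villin promoter, which is active in the intestinal epithelium and not in plasma cells or B cells. Each library is 1 mouse. The labels name the cells intestinal epithelial cells (IECs), but the material was scraped mucosa, which also carries cells of the lamina propria and of lymphoid tissue beneath the epithelium.

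Plasma cells are antibody-secreting cells that descend from B cells. Each one transcribes 1 rearranged heavy chain and 1 rearranged kappa or lambda light chain, in which a chosen V gene is joined to D and J segments and spliced to a constant gene. The constant gene of the heavy chain sets the isotype: Ighm and Ighd are used by naive B cells, and class switching replaces them with Ighg genes (IgG) or Igha (IgA). In the gut most plasma cells make IgA, which is joined into dimers by the J chain (Jchain) and carried across the epithelium by the polymeric immunoglobulin receptor (Pigr).

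The members lie in the 3 immunoglobulin loci of the mouse, 82 in the heavy-chain locus on chromosome 12 from 113254830 to 116000461, 78 in the kappa locus on chromosome 6 from 67609713 to 70726966 and 7 in the lambda locus on chromosome 16 from 19061618 to 19260859. All 167 have the same identifier, position and strand in GENCODE M21 (GRCm38). To show what distinguishes the V genes that led single libraries, the last 90 bases of their GENCODE M21 transcripts are given 5′ to 3′, with the codons of the conserved Tyr-Tyr-Cys or Tyr-Phe-Cys that precede the junction in capitals. Transcripts of the heavy V genes:
Ighv1-26: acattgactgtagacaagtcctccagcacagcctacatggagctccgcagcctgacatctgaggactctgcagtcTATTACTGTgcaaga
Ighv1-53: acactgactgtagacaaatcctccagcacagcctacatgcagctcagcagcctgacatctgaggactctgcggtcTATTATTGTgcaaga
Ighv6-3: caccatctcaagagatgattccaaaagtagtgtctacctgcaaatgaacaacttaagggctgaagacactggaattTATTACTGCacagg
Ighv13-2: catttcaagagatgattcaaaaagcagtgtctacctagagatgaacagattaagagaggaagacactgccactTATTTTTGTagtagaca
Transcripts of the kappa V genes:
Igkv1-117: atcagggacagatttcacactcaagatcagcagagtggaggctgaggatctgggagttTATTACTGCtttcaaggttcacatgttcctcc
Igkv1-110: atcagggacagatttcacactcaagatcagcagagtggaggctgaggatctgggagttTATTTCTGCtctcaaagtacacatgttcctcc
Igkv8-30: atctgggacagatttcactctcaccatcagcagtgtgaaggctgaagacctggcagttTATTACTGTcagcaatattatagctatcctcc
Igkv2-112: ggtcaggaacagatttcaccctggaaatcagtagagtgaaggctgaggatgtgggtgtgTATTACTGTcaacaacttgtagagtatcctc
Counted back from the cysteine codon, Ighv1-26 and Ighv1-53 differed at 6 of 84 bases (identity 92.9%), whereas Ighv1-26 and Ighv6-3 differed at 36 of 84 (57.1%). Igkv1-117 and Igkv1-110 differed at 1 of 67 bases (98.5%). Because of such likeness, 59 of the 163 members with a transcript of at least 100 bases shared a 100-base window with another immunoglobulin gene, 22 of 74 heavy and 35 of 75 kappa V genes among them, up to 55.8% of the windows for Igkv6-20. The count of a single V gene is therefore uncertain where reads could match a near copy. Of the 11 constant genes, 0 shared such a window.

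Between 14749669 and 21557468 reads per library were counted on genes, and levels are given as CPM, counts scaled to a common library size after TMM normalization. The share of mitochondrial transcripts was 50.3% in IKO 4, 23.9% in WT 3 and 3.49% to 10.3% elsewhere, and smooth-muscle RNA was high in WT 4, IKO 1 and IKO 2 (summed CPM of 8 genes 11502, 857 and 421, against 11.4 to 73.3 elsewhere). Ncor1 had a median of 129.7 CPM in WT (106.4 to 194.5) and 47.7 in IKO mice (31.7 to 64.0), with no overlap (edgeR log2 fold change -1.41, standard error (SE) 0.18, Benjamini-Hochberg adjusted p = 0.00051). Its counts are summed over all exons and all cells of the mucosa, and the excised exons were not measured separately. The summed level of 13 epithelial markers was 25239 to 64304 CPM, and RNA of other cells was present in every library, from 20.1 to 1057 CPM for 18 B cell markers. The 21 plasma cell genes summed to 742.1 to 1513 CPM, but the epithelium also transcribes some of them, so this sum is not a measure of plasma cell RNA alone.

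Immunoglobulin RNA made up a small and variable part of the mucosal RNA. Its total ranged from 0.0655% of all counts in IKO 1 to 0.685% in WT 7. In normalized terms the WT mice had a lowest value of 1341, a median of 3147 and a highest of 6345 CPM, and the IKO mice 705.7, 3269 and 5196 CPM. The ranges of the genotypes overlapped over most of their length. WT mice averaged 3444 ± 1633 CPM and IKO mice 3089 ± 1504 CPM (SD, n = 7 each). On the log2 scale the IKO mean was 0.23 lower (-0.23), and without IKO 1, the lowest library, it was 0.09 higher. As a share of all counts, before normalization, the means were 0.398% ± 0.197 in WT and 0.266% ± 0.133 in IKO mice (SD, n = 7 each). The size of the difference thus depended on the scaling. As a sum over chosen members, the total was described and not tested. In bulk tissue, fewer plasma cells and less immunoglobulin RNA per cell cannot be told apart.

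**Figure D1:**
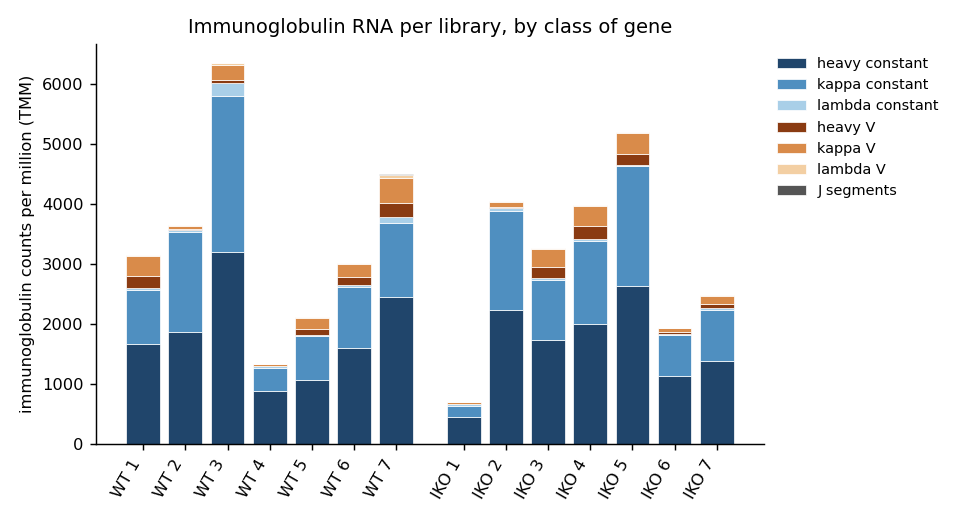
Immunoglobulin CPM (TMM-scaled, linear axis) in each of the 14 libraries, stacked by class of gene. Totals run from 705.7 CPM in IKO 1 to 6345 CPM in WT 3, and heavy and kappa constant genes form most of every bar.

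Heavy constant genes took 50.2% to 65.7% of the immunoglobulin counts and Igkc, the constant gene of the kappa chain, 27.6% to 45.3%. The 3 lambda constant genes together took 0.521% to 3.51%. Kappa V genes held 1.45% to 10.5%, heavy V genes 0.397% to 6.28% and the 4 J genes at most 0.113%. Per kilobase of gene length, the mean level over the 14 libraries was 2181 CPM for Igkc, 559.3 for Igha, 63.5 for Iglc1, 41.5 for Ighm, 38.1 for Ighg2b, 24.5 for Iglc2, 13.8 for Ighg2c, 12.4 for Iglc3, 10.2 for Ighd, 5.52 for Ighg3 and 5.21 for Ighg1. Neighbours in this order had overlapping ranges over the libraries. Ighg2b, for example, ranged from 1.03 to 369.7 CPM per kilobase.

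Igha held the largest share of the heavy constant counts per kilobase in all 14 libraries, and 75.4% or more in 13 of them. This share was 32.7% at its lowest, 87.4% at the median and 99.1% at its highest in WT mice, and 86.9%, 93.1% and 97.1% in IKO mice. Igha was lowest in WT 3, with 32.7%, beside 27.2% Ighg2b, 20.97% Ighm, 7.58% Ighg2c and 5.62% Ighd. The WT libraries lay on both sides of all IKO libraries, with WT 2, WT 5 and WT 6 above and WT 3, WT 4 and WT 7 below them, while WT 1 lay within the IKO range. WT mice averaged 82.0% ± 23.6 and IKO mice 92.9% ± 3.35 (SD, n = 7 each), a difference that did not pass an exact two-sided permutation test over the 3432 divisions into 7 and 7 (p = 0.264, adjusted p = 0.528 over 4 shares). The smallest p this design allows is 0.000583. Without WT 3 the difference fell from 10.9 to 2.63 percentage points.

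Of the other isotypes, Ighm, the first heavy chain that a B cell makes, had shares of 0.371% to 20.97% (median 5.75%) in WT and 1.10% to 4.69% (median 2.59%) in IKO mice. Means were 6.93% ± 7.54 and 2.78% ± 1.24 (SD, n = 7 each), and the exact permutation test gave p = 0.174 (adjusted p = 0.528). The 4 Ighg genes together took 0.470% to 40.7% (median 5.28%) in WT and 1.49% to 7.25% (median 3.80%) in IKO mice (means 9.26% ± 14.4 and 3.76% ± 1.83, SD, n = 7 each, exact permutation p = 0.439, adjusted p = 0.531). Without WT 3 the difference in the IgG share went from -5.50 to -0.26 percentage points. The lowest and the highest value of each share were found in WT mice, so the IKO libraries lay inside the WT range.

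**Figure D2:**
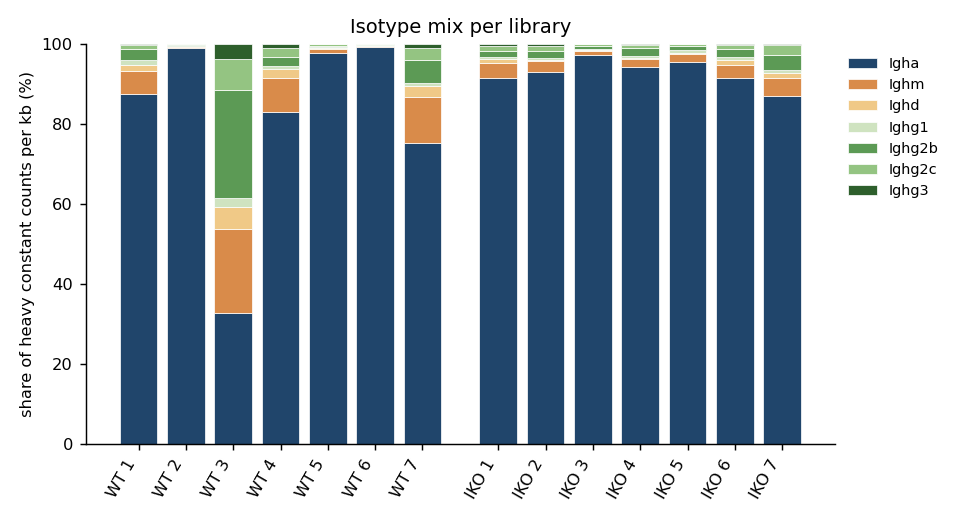
Share of each heavy constant gene in the heavy constant counts per kilobase (%), stacked for each library. Igha fills 75.4% or more of the bar in every library except WT 3, where it fills 32.7% and Ighg2b and Ighm take 27.2% and 20.97%.

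The part of the heavy constant counts that was not Igha moved with the level of B cell RNA. It ranged from 0.866% in WT 6 to 67.3% in WT 3. The mean log2 CPM of the 18 B cell markers, which include the surface protein Ms4a1, was -0.86 in WT 6, -0.77 in WT 2 and -0.25 in WT 5, and reached 3.49 in WT 1, 4.61 in WT 7 and 5.44 in WT 3. In IKO mice it lay between 0.25 and 2.43. Over all 14 libraries the log odds of the non-IgA share correlated with this level at Pearson's r = 0.93 and Spearman's rho = 0.92 (permutation p = 1e-05 for both, the smallest that 100000 resamples can give, and adjusted p = 0.00015 over 30 tests of 10 relations). Without WT 3 and WT 7, the libraries farthest from the median level, r was 0.88. Within WT mice r was 0.97 and rho 0.96 (exact permutation p = 0.000595 and 0.00278, adjusted p = 0.00446 and 0.0208). Within IKO mice r and rho were both 0.43 (exact permutation p = 0.335 and 0.354, adjusted p = 0.396 and 0.482), where IKO 1 had a non-IgA share of 8.51% at the lowest B cell level of its genotype. The difference between the genotypes was not tested. Ighm and Ighd are themselves transcribed by the cells that the markers name.

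**Figure D3:**
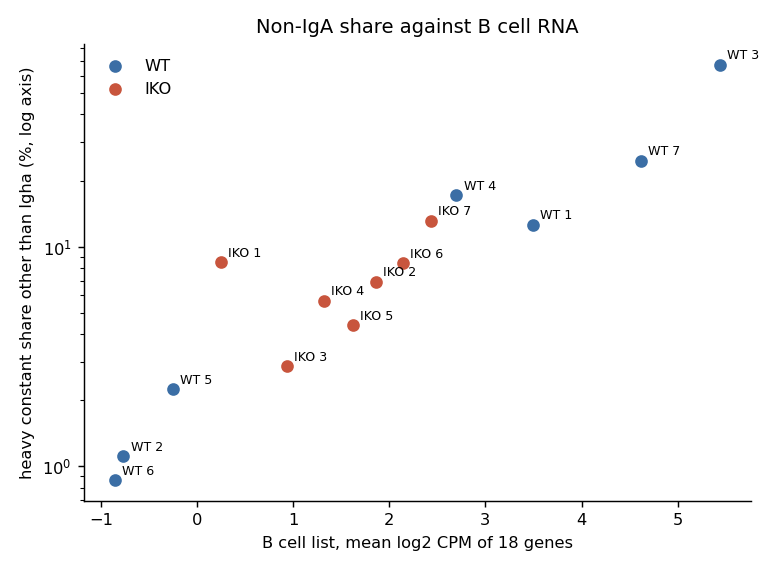
Share of heavy constant counts per kilobase that was not Igha (%, log axis) against the mean log2 CPM of 18 B cell markers, 1 point per library. The share rises from 0.866% in WT 6 to 67.3% in WT 3, and the IKO libraries lie between 2.85% and 13.1%.

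Light chains were mostly kappa, as is usual in mice. The share of lambda in the light constant counts per kilobase was 2.22% to 8.44% in WT mice, with a median of 4.41%, and 1.41% to 10.02% in IKO mice, with a median of 3.20%. The highest value was in IKO 1, and the next in its genotype was 4.41% in IKO 7. The means were 4.98% ± 2.61 for WT and 4.07% ± 2.77 for IKO mice (SD, n = 7 each, exact permutation p = 0.531, adjusted p = 0.531). Over 14 libraries the lambda share had r = 0.50 and rho = 0.61 with the B cell level (permutation p = 0.0672 and 0.0232, adjusted p = 0.126 and 0.0649), and r was 0.14 without WT 3 and WT 7. It was 0.93 within WT mice and -0.64 within IKO mice (exact permutation p = 0.0137 and 0.126, adjusted p = 0.0373 and 0.21), and the difference was not tested. Iglc1 took 47.1% to 83.0% of the lambda counts per kilobase, with means of 64.8% ± 11.5 and 64.7% ± 8.02 (SD, n = 7 each) in WT and IKO mice. Counted on V genes in place of constant genes, lambda made up 4.09% of the kappa and lambda V counts in IKO 5 and 22.7% in IKO 1. Among the lambda V counts Iglv1 held 76.6% to 92.2%, Iglv2 2.23% to 16.8% and Iglv3 0.870% to 12.7%.

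The ratio of Igkc to Igha counts was 0.465 to 0.888 in 13 libraries and 2.19 in WT 3. For each 100 Igha counts there were 7.80 Jchain counts in WT 4 and 14.3 to 27.9 in the other libraries. Jchain itself had a lowest value of 59.6, a median of 330.8 and a highest of 446.9 CPM in WT and 74.4, 325.6 and 401.8 CPM in IKO mice, and its low ends were WT 4 and IKO 1. The log2 total of immunoglobulin CPM correlated with that of Jchain over 14 libraries (r = 0.83, rho = 0.66, permutation p = 0.00098 and 0.0118, adjusted p = 0.0049 and 0.0505), but r fell to 0.55 without WT 4 and IKO 1 and thus rested in part on these libraries. Within WT mice r was 0.79 and rho 0.61 (exact permutation p = 0.0284 and 0.167, adjusted p = 0.0608 and 0.294), and within IKO mice r was 0.93 and rho 0.75 (exact permutation p = 0.00774 and 0.0663, adjusted p = 0.0232 and 0.133). Correlations of the total with the B cell level (r = 0.36, rho = 0.29), the mitochondrial share (r = 0.35, rho = 0.57) and the epithelial markers (r = -0.09, rho = -0.09) had permutation p-values of 0.209 and 0.31, 0.181 and 0.0348, and 0.768 and 0.752, and adjusted p-values of 0.284 and 0.465, 0.267 and 0.0871, and 0.795 and 0.869. Without the 2 libraries farthest from the median they were r = 0.03, 0.39 and -0.05. With the smooth-muscle level the total had r = -0.51 and rho = 0.09 over 14 libraries (permutation p = 0.0661 and 0.773, adjusted p = 0.126 and 0.869). Without WT 4 and IKO 1 this r was 0.42, so its sign rested on them. The smooth-muscle level separated WT 4, IKO 1 and IKO 2 from the rest. Among the other 11 libraries the total had r = 0.53 and rho = 0.74 with it (permutation p = 0.0956 and 0.013, adjusted p = 0.174 and 0.0503 over 31 tests, r = 0.74 without WT 1 and WT 7).

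V genes were counted less often than constant genes, and by an amount that varied between libraries. The ratios below are of raw counts, not per kilobase. Heavy V genes are shorter than heavy constant genes (351 bases for Ighv1-26, 2668 for Igha), so the ratios do not show how fully V genes were counted. For every 100 heavy constant counts there were 0.614 heavy V counts at the lowest, 8.31 at the median and 11.8 at the highest in WT mice, and 1.03, 5.44 and 10.9 in IKO mice, a 19.2-fold range over all libraries. For every 100 Igkc counts there were 3.21 to 37.1 kappa V counts in WT and 5.22 to 28.9 in IKO mice. WT 2, WT 3, WT 4 and IKO 2 were low for the heavy chain, with 0.773, 1.74, 0.614 and 1.03, and the same libraries were the lowest 4 for the kappa chain. The log2 ratios of the heavy and kappa chains, which come from separate loci but share their library, correlated over 14 libraries (r = 0.94, rho = 0.94, permutation p = 1e-05 for both, the smallest that the resamples can give, adjusted p = 0.00015), and r was 0.96 without WT 2 and WT 4. Within WT mice r was 0.94 and rho 0.93 (exact permutation p = 0.00635 and 0.00675, adjusted p = 0.0218 and 0.0337), and within IKO mice r was 0.98 and rho 0.93 (exact permutation p = 0.000794 and 0.00675, adjusted p = 0.00476 and 0.0337). Lambda ratios, 11.3 to 86.3 V counts per 100 constant counts, followed the heavy ratio too (r = 0.89, rho = 0.80, permutation p = 5e-05 and 0.00117, adjusted p = 0.0005 and 0.0117, r = 0.87 without WT 2 and WT 4), with r = 0.88 and rho = 0.64 within WT mice (exact permutation p = 0.0151 and 0.139, adjusted p = 0.0377 and 0.26) and r = 0.96 and rho = 0.86 within IKO mice (exact permutation p = 0.00238 and 0.0238, adjusted p = 0.0102 and 0.0649). The share of protein-coding counts on genes under 1000 bases, 4.72% to 9.98%, ran against the heavy ratio (r = -0.58, rho = -0.62, permutation p = 0.0255 and 0.0212, adjusted p = 0.0589 and 0.0649, r = -0.90 without IKO 2 and IKO 4). Within WT mice r was -0.94 and rho -0.75 (exact permutation p = 0.00655 and 0.0663, adjusted p = 0.0218 and 0.133), and within IKO mice r was -0.57 and rho -0.43 (exact permutation p = 0.178 and 0.354, adjusted p = 0.267 and 0.482). The difference between the genotypes and the part of this share in the V ratios were not tested.

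**Figure D4:**
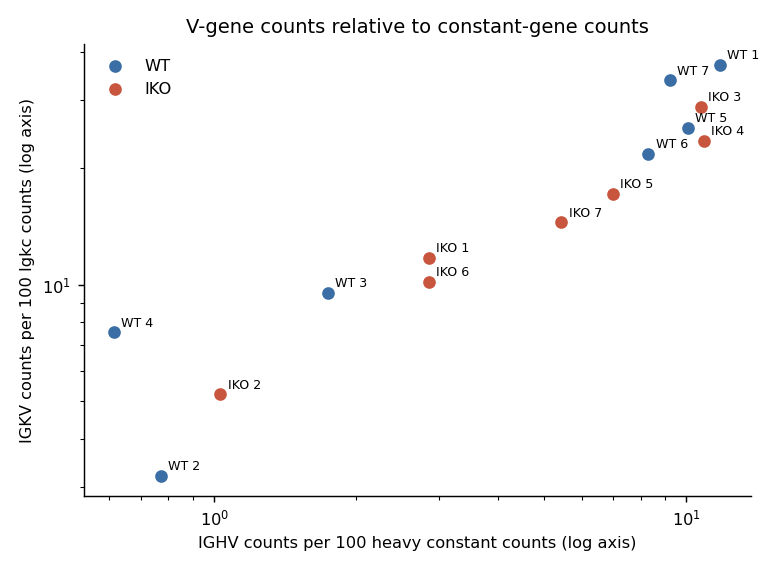
Heavy V counts per 100 heavy constant counts against kappa V counts per 100 Igkc counts, both on log axes, 1 point per library. Both ratios are low in WT 2, WT 3, WT 4 and IKO 2 and high in WT 1, WT 5, WT 7, IKO 3 and IKO 4, and the genotypes are mixed along the line.

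The V genes in use were many in every library. The effective number, which is the number of equally used genes that would give the same Shannon entropy, was 26.4 to 48.9 (median 38.0) of 74 heavy V genes in WT and 33.8 to 45.5 (median 41.2) in IKO mice. For kappa it was 34.4 to 47.2 (median 46.3) of 75 in WT and 34.8 to 46.6 (median 40.4) in IKO mice. These values rest on unequal depth, from 114 heavy V counts in WT 4 to 6369 in WT 7. When each library was thinned to 114 heavy or 391 kappa V counts, the ranges narrowed to 24.6 to 35.7 for heavy and 31.7 to 43.2 for kappa genes. The means after thinning were 30.2 ± 4.93 in WT and 31.4 ± 2.23 in IKO mice for heavy genes and 39.2 ± 4.99 and 37.7 ± 4.30 for kappa genes (SD, n = 7 each), described without a test. Of the heavy V genes 18 had a count in every library, and of the kappa V genes 42 did.

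The 5 heavy V genes with the largest mean share held 26.7% of the heavy V counts and the 5 kappa V genes 27.9% of the kappa V counts. For the heavy chain these were Ighv1-26 (mean share 6.45%), Ighv1-53 (5.49%), Ighv1-18 (4.92%), Ighv6-3 (4.45%) and Ighv7-1 (3.87%). For kappa they were Igkv1-117 (6.38%), Igkv1-110 (6.08%), Igkv1-135 (5.55%), Igkv2-112 (4.80%) and Igkv8-30 (4.31%). The Ighv1 family, with 37 of the 74 heavy V genes, took 52.7% of the heavy V counts and between 44.8% and 61.0% in single libraries. The Igkv1 family of 8 genes took 19.8% of the kappa V counts and the Igkv4 family of 19 genes 14.9%.

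Which V gene led differed between mice. Ighv1-26 led 6 libraries (WT 3, WT 5, WT 6, WT 7, IKO 3 and IKO 6), with shares of 5.94% to 10.1% in them. In WT 1, Ighv6-3 took 16.2% of 4837 heavy V counts (exact 95% binomial interval 15.2% to 17.3%, counting error only), against 0.877% to 6.95% in the other libraries. In IKO 5, Ighv13-2 took 8.57% (7.68% to 9.54%), against 0% to 3.67% elsewhere. Ighv1-9 led WT 2 with 15.1%, but of only 225 counts (10.7% to 20.5%). Ighv1-53 led WT 4 and IKO 2, Ighv5-17 led IKO 1, Ighv7-1 led IKO 4 and Ighv1-80 led IKO 7. Ighv1-18, the third of the leading genes, had 0 of 819 heavy V counts in WT 3, which allows a share of up to 0.366%, while the other libraries held 2.50% to 7.69%.

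Kappa leaders were as uneven. Igkv2-112 took 20.4% of 2979 kappa V counts in IKO 4 (exact 95% interval 19.0% to 21.9%) and 1.85% to 5.49% in the other libraries. Igkv8-30 took 13.6% in WT 1 (12.9% to 14.4%) and led IKO 1 with 8.70%, and held 0.971% to 7.50% in the other libraries. Igkv8-28 led IKO 5 with 9.16% (8.47% to 9.87%) against 0.205% to 2.81% elsewhere. The most common leaders were Igkv1-117 in WT 2, WT 3, WT 6 and IKO 3 and Igkv1-135 in WT 5, WT 7 and IKO 2, whereas Igkv3-4 led WT 4 and IKO 6 and Igkv1-110 led IKO 7. The excesses of Ighv6-3, Ighv13-2, Igkv2-112 and Igkv8-28 were each found in 1 library, and the other libraries of the same genotype stayed within the ranges given. Sequences of the antibodies themselves cannot be read from gene counts, and clones were not counted.

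**Figure D5:**
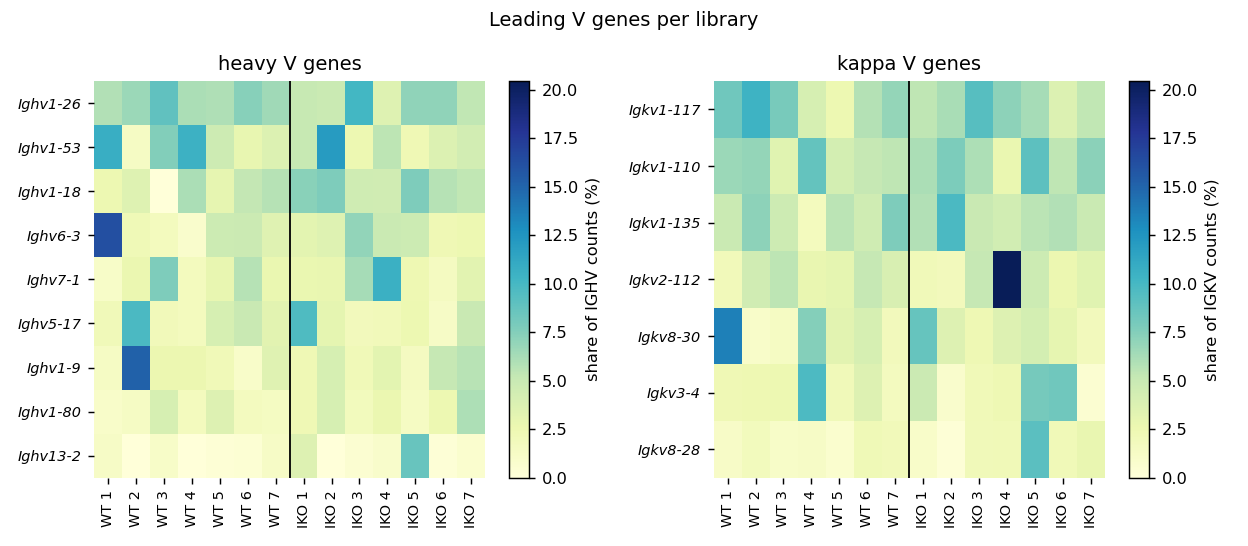
Share of the heavy V counts (left) and of the kappa V counts (right) held by the leading V genes in each library (%, colour scale), with WT libraries left of the line and IKO libraries right of it. The darkest cells are single ones, Ighv6-3 in WT 1 (16.2%), Ighv1-9 in WT 2 (15.1%), Igkv8-30 in WT 1 (13.6%) and Igkv2-112 in IKO 4 (20.4%).

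The genotypes were then compared gene by gene, to ask whether immunoglobulin genes changed with the loss of NCoR1 in IECs. In edgeR's quasi-likelihood test over 13846 genes, 1200 (8.67%) had a Benjamini-Hochberg adjusted p under 0.05. Of the 167 immunoglobulin genes 110 passed the filter on low counts and 0 were called, while 6 of the 110 had an unadjusted p under 0.05, beside 4213 (30.4%) of all genes tested. DESeq2 called 3 members (of 17754 genes with an adjusted p, 13.8% were called): Ighd and Igkv4-63 lower (log2 fold change -2.49 and -3.31) and Igkv1-132 higher (3.78) in IKO mice (DESeq2 adjusted p = 0.0486, 0.0047 and 0.0065). Igkv1-132 had 83 counts in all, at most 27 in a library, and did not pass edgeR's filter. Igkv4-63 had 315 counts in WT 7, 68 in IKO 3 and at most 29 in any other library. In edgeR no kappa V gene had a log2 fold change below -1.82. The log2 fold change was positive for 30 of the 110 genes tested and negative for 80, beside 6020 and 7826 of all genes tested. Its median was -0.34, beside -0.09 over all genes tested. The 110 genes were read in the same mice and are not separate observations. For 0 of them did the CPM of the genotypes not overlap, beside 3.1% of all genes tested.

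Igha (ENSMUSG00000095079, chromosome 12 from 113254830 to 113260236) had a lowest value of 763.8 CPM, a median of 1504 and a highest of 1954 in WT, and 418.5, 1694 and 2539 CPM in IKO mice. These overlapped throughout, with a log2 fold change of 0.14 (SE 0.33, 95% interval -0.56 to 0.85, edgeR adjusted p = 0.795). Igkc (ENSMUSG00000076609, chromosome 6 from 70726435 to 70726966) had 395.3, 1012 and 2590 CPM in WT and 194.6, 1006 and 1993 CPM in IKO mice (log2 fold change -0.14, SE 0.45, 95% interval -1.09 to 0.82, edgeR adjusted p = 0.861). On the fold scale these intervals ran from 0.679 to 1.80 for Igha and from 0.471 to 1.76 for Igkc. The 6 genes with an unadjusted p under 0.05 were all lower in IKO mice by their estimate. They were Ighd, Ighg3, Ighm and Ighg2b of the heavy chain, Iglc3 of the lambda chain and Igkv4-53. Ighd, the isotype of naive B cells, had 0.291, 14.4 and 145.2 CPM as lowest, median and highest in WT and 2.81, 4.70 and 11.9 CPM in IKO mice (log2 fold change -2.54, SE 0.94, edgeR adjusted p = 0.0915). Ighm had 4.22, 55.9 and 537.7 CPM in WT and 12.5, 28.0 and 47.5 CPM in IKO mice (log2 fold change -2.10, SE 0.89, edgeR adjusted p = 0.128). Ighg2b had 2.77, 20.8 and 990.1 CPM in WT and 7.42, 29.7 and 53.2 CPM in IKO mice, so the IKO median was the higher one although the log2 fold change was -2.60 (SE 1.11, edgeR adjusted p = 0.131). In each of these 3 genes the highest values were those of WT 3 and WT 7, and the lowest was that of WT 6. Log2 fold changes were -2.72 for Ighg3, -1.72 for Ighg2c, -0.996 for Ighg1, -1.72 for Iglc3, -0.98 for Iglc1 and -0.93 for Iglc2, and their edgeR adjusted p-values lay between 0.113 and 0.389. Leaving out WT 1, WT 3 and WT 7, the WT libraries with the most B cell RNA, turned the median log2 fold change of the immunoglobulin genes to 0.55, with 99 of 121 positive and again 0 called. That choice takes high values from 1 genotype only and was made after the values were seen.

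Other genes of the plasma cell and B cell lineage are described from lists. For comparison, edgeR called 8.67% of all genes tested, and the median log2 fold change over all genes tested was -0.09. All 18 B cell markers had a negative log2 fold change (median -1.98), 13 had an unadjusted p under 0.05, beside 30.4% of all genes tested, and 0 were called by edgeR. The markers were read in the same mice and are not separate observations. Their mean log2 CPM was 0.25 to 2.43 in IKO mice, inside the WT range of -0.86 to 5.44. WT 2, WT 5 and WT 6 lay below every IKO library, and WT 1, WT 3, WT 4 and WT 7 lay above. Ms4a1, which encodes CD20, had 0 CPM in WT 2 and up to 53.6 CPM in WT 3 (log2 fold change -2.25, edgeR adjusted p = 0.138). Of 12 germinal-centre genes 9 were tested and 1 was called, Bcl6, a transcriptional repressor that epithelial cells also express, which rose from a median of 15.1 to 30.8 CPM (log2 fold change 1.04, SE 0.22, edgeR adjusted p = 0.0129). The median log2 fold change of the 9 was -1.23, 7 of them were negative, and 7, with Bcl6 among them, had an unadjusted p under 0.05. Their summed level was 38.8 to 196.6 CPM in WT and 35.3 to 94.02 CPM in IKO mice.

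Of 21 plasma cell genes, all tested, 1 rose and 0 fell, beside 4.38% and 4.28% of all genes tested. The median log2 fold change of the 21 was -0.21, beside -0.09 over all genes tested. The gene that rose was Creld2, a chaperone of the endoplasmic reticulum that is not restricted to plasma cells, with medians of 32.0 CPM in WT and 54.7 CPM in IKO mice (log2 fold change 0.72, SE 0.22, edgeR adjusted p = 0.0495), and it lost the call under 16 of 21 alternatives. Jchain had a log2 fold change of -0.07 (SE 0.38, 95% interval -0.88 to 0.74, edgeR adjusted p = 0.922). Mzb1, which assists antibody assembly, had -0.56 (edgeR adjusted p = 0.495), and Tnfrsf17, the survival receptor BCMA, had -0.21 at medians of 0.534 and 0.774 CPM (edgeR adjusted p = 0.834). Sdc1 (0.34), Xbp1 (0.43) and Prdm1 (0.68), the plasma cell genes that the epithelium also transcribes, did not pass either (edgeR adjusted p = 0.411, 0.191 and 0.175).

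Of 24 genes listed for the induction, homing and transport of IgA, 19 were tested. Of these 4 rose and 1 fell, beside 4.38% and 4.28% of all genes tested. The median log2 fold change of the 19 was -0.16, beside -0.09 over all genes tested. The list also holds a receptor of IgG, Fcgrt, and the cells that transcribed the called genes were not determined. Aldh1a1, a retinaldehyde dehydrogenase that makes retinoic acid, had a lowest value of 161.7, a median of 266.8 and a highest of 431.2 CPM in WT and 683.1, 911.9 and 1197 CPM in IKO mice, with no overlap (log2 fold change 1.76, SE 0.22, edgeR adjusted p = 0.000439). Nos2, the inducible nitric oxide synthase, rose from a median of 86.7 to 257.9 CPM (log2 fold change 1.69, SE 0.41, edgeR adjusted p = 0.0222). Fcgrt, the neonatal Fc receptor that carries IgG, rose from 76.0 to 171.4 CPM (log2 fold change 1.15, SE 0.24, edgeR adjusted p = 0.0116). Tnfsf13b, the B cell survival factor BAFF, rose from 8.90 to 19.6 CPM (log2 fold change 0.97, SE 0.27, edgeR adjusted p = 0.0409), and lost the call under 14 of 21 alternatives. Itga4, an integrin subunit of gut homing, fell from a median of 8.37 to 3.30 CPM (log2 fold change -1.70, SE 0.47, edgeR adjusted p = 0.0401), with the highest value in WT 7, and without WT 1, WT 3 and WT 7 its log2 fold change was -0.57 and it was not called. It lost the call under 12 of 21 alternatives in all. Pigr had 707.2 to 3664 CPM in WT and 1540 to 4223 CPM in IKO mice (log2 fold change 0.38, SE 0.34, edgeR adjusted p = 0.472). Tnfsf13, the factor APRIL, had a log2 fold change of 1.16 (edgeR adjusted p = 0.0886). The chemokines Ccl25 and Ccl28, which attract IgA plasma cells, had 0.23 and 0.20 (edgeR adjusted p = 0.523 and 0.792), and Madcam1, the vascular ligand of gut-homing cells, had -1.79 at medians of 0.570 and 1.09 CPM (edgeR adjusted p = 0.248).

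Markers of other cells moved with the libraries as follows. Of all genes tested, 8.67% were called, and the median log2 fold change over all of them was -0.09. Of 16 T and NK cell genes 0 were called (median log2 fold change -0.44, summed level 126.2 to 316.2 CPM in WT and 154.0 to 322.5 CPM in IKO mice). Of 11 genes of follicles and M cells 10 were tested and 0 called (median -1.27, 49.7 to 217.6 CPM and 35.3 to 77.2 CPM), and the summed level was highest in WT 3 and WT 7. This list is not separate from those above. It shares Spib and Cr2 with the B cell markers, Cxcl13 with the germinal-centre genes, and Ccl20 and Madcam1 with the IgA genes. Of 12 myeloid genes 9 were tested and 1, Cd14, was higher in IKO mice (log2 fold change 0.77, edgeR adjusted p = 0.0328), while the other 8 had negative values (median of the 9 -0.45, summed level 72.9 to 355.0 CPM and 43.0 to 144.4 CPM). Of 13 epithelial genes 0 were called (median 0.30), and of 8 smooth-muscle genes 7 were tested and 0 called (median -3.08). The part of these cells in the immunoglobulin values was not tested.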

How the data were processed

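RNA from scraped ileum mucosa of 7 WT and 7 IKO mice was measured, with 1 library per mouse. The deposited counts are whole numbers per gene without normalization. According to the submitters' processing notes, the authors used HISAT2 2.0.5, featureCounts 1.5.0-p3, DESeq2 1.16.1 and the build mm10. Read filters and strandedness are not given in the sources used here. A deposited table of FPKM and the authors' own comparisons were not used. Genotypes were taken from the sample titles, and columns named KO hold the IKO mice.

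After filterByExpr, counts were scaled with TMM and compared with edgeR 4.0.16 in R 4.3.3 (glmQLFit and glmQLFTest, genotype as the only term, Benjamini-Hochberg adjustment over all genes tested). The standard error is the log2 fold change divided by the square root of F. List levels are means of log2 CPM with a prior count of 2. Isotype and lambda shares use counts per kilobase and were compared with exact permutation tests. V-gene spread was thinned with 200 seeded draws. The depth of 14749669 to 21557468 counts leaves 114 to 6369 heavy V counts, so intervals are given for V shares. The edgeR and permutation tests were tested on simulated data.

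Named genes are all constant genes, Jchain, Pigr, the 5 V genes with the largest mean share per chain, all lambda V genes, the V gene leading each library, members and list genes with an adjusted p under 0.05, and further fixed lineage genes, not all of which are reported here. Igkv4-53, Igkv4-63, Igkv1-132 and Cd14 were named after their values were seen. Members and lists were chosen with earlier results of these data known. Alternatives were DESeq2 1.42.0, RLE scaling, other filters, a replicate block, other share scales and libraries left out. The relations of the non-IgA share, the lambda share and the V ratios, and that of the smooth-muscle level within 11 libraries, were added after the data were seen.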

Additional observations from a re-analysis of the deposited data

Results flagged for a closer look

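In groups of 7 libraries, 4 of the measures of immunoglobulin RNA had a library set apart from the rest of its genotype, where the gap to the nearest library exceeded the limit of Dixon's test at 95%. For normal values chance flags about 1 in 20 groups, and 28 groups were examined. Normality was not tested, and measures that share counts are not independent. Among WT mice, WT 3 had the lowest Igha share (32.7%, next 75.4%, gap 0.642 of the range), the highest IgG share (40.7%, next 10.6%, gap 0.749) and the highest ratio of Igkc to Igha counts (2.19, next 0.888, gap 0.778). These measures all contain the Igha counts of WT 3, so they are not separate observations. WT 3 also had the highest B cell level and a mitochondrial share of 23.9%. Among IKO mice, IKO 1 had the highest lambda share (10.02%, next 4.41%, gap 0.652), and it also had the lowest total of immunoglobulin CPM, 705.7.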

How the results depend on the processing

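Of the immunoglobulin genes 0 were called by edgeR among the members with a median of at least 10 counts, and 0 under RLE scaling, without a filter, with at least 10 counts in every library, without WT 3, WT 4 and IKO 4, and without WT 1, WT 3 and WT 7 (2 to 8 with an unadjusted p under 0.05 in these 5 settings). In this order, 110, 167, 16, 121 and 121 members were tested in the 5 settings. Of all genes tested, 8.81%, 1.75%, 10.9%, 3.08% and 2.11% were called, so 0 calls say little where that share or the number of members is small. DESeq2 called 3 (13.8% of all genes). Leaving out single libraries gave 0 to 1 (3.65% to 9.76% of all genes), the 1 being Igkv4-63 without IKO 3 (log2 fold change -3.85, edgeR adjusted p = 0.0405). Over all genes the count of 1200 became 2444 with DESeq2, 508 without a filter, 433 without WT 3, WT 4 and IKO 4, 300 without WT 1, WT 3 and WT 7, and 515 to 1371 with single libraries left out. It fell by over 1.5 times without WT 4 (746), WT 7 (600), IKO 1 (526), IKO 2 (728), IKO 5 (515) or IKO 7 (789). Leaving out WT 2 gave 1371 and leaving out IKO 6 gave 1218, and the cause of these changes was not tested. With the replicate block the count was 362 for all genes and 0 for immunoglobulin genes, and the exact sign-flip test of same-numbered differences gave an adjusted p of 0.562 for each share. Same-numbered libraries did not deviate together (correlations of -0.31 to 0.23, the best match in 1 of 7 numbers). The numbers thus gave no sign of pairing the mice, but weak correlations cannot exclude it.

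None of the 4 shares passed a test under the alternatives run (adjusted p from 0.228 to 0.987). Their differences (IKO minus WT, percentage points) turned without WT 1, WT 3 and WT 7 to -1.80 for Igha, 0.17 for Ighm, 1.69 for IgG and 0.51 for lambda, without WT 3, WT 4 and IKO 4 to 0.24 for IgG and 0.26 for lambda, and with V genes in place of constant genes to 0.90 for lambda. Without WT 1, WT 3 and WT 7, log2 fold changes turned to 0.65 for Ighm, 0.24 for Ighd, 1.51 for Ighg1, 1.79 for Ighg2b, 1.22 for Ighg2c, 0.39 for Ighg3, 0.25 for Igkc, 0.16 for Iglc1, 0.45 for Iglc2, 0.13 for Iglc3, 0.27 for Jchain, 1.02 for Ms4a1, 0.89 for Mzb1, 0.47 for Tnfrsf17 and 2.15 for Madcam1. The libraries left out have the most B cell RNA of WT, so part of this is by construction. They were not the highest of WT for every gene listed. Igkc, for example, had 3104 CPM per kilobase in WT 2, against 1667 in WT 1. Without WT 3, WT 4 and IKO 4 they turned to -0.076 for Igha, 0.0073 for Tnfrsf17 and -0.024 for Ccl28. With the replicate block they turned to 0.22 for Ighg1, 0.29 for Ighg2b and 0.031 for Ighg2c. Leaving out single libraries gave -0.0097 to 0.31 for Igha, -1.20 to 0.080 for Ighg1, -0.34 to 0.17 for Igkc, -0.25 to 0.11 for Jchain, -0.77 to 0.078 for Mzb1, -0.48 to 0.34 for Tnfrsf17 and -0.14 to 0.49 for Ccl28. For these the cause was not tested. Of the called genes, Aldh1a1 and Ncor1 stayed past the threshold under all 21 alternatives, while Creld2 lost the call under 16, Tnfsf13b under 14, Itga4 under 12, Nos2 under 3, Fcgrt under 1 and Bcl6 under 1. The difference between the genotype means moved by less than 1 SD, pooled over the genotypes, under every alternative. This was so for the log2 total of immunoglobulin CPM and for both effective numbers. The values themselves changed more, and for heavy V genes the difference went from 2.35 to -1.88 when only genes with at least 10 counts were used. Depth limits single V genes in WT 2, WT 4, IKO 1 and IKO 2, which hold 114 to 390 heavy V counts.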
